A study of Mus musculus with 8 samples.

Results

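The calcium/calmodulin-dependent protein kinases (CaM kinases) and the inhibitors of CaMKII were followed in mouse hippocampus as 10 genes, chosen by name: Camk2a, Camk2b, Camk2d, Camk2g, Camk2n1, Camk2n2, Camk4, Camk1, Camkk1 and Camkk2. All 10 were among the 55188 genes listed for each library and among the 16667 genes tested. RNA came from hippocampus of C57BL/6 mice, described as transgenic, before fear conditioning. The wild-type (WT) group and the group with the genotype label KO, a knockout of the tyrosine kinase Pyk2, each held 2 numbered units with 2 technical replicates, and each unit was taken as 1 animal (n = 2 per group). The allele, the cells in which it was lost, and the age and sex of the mice were not stated in the labels, and no sample carries a treatment. Whether each number is a separate mouse is not stated, so the p-values cover only how much these units vary, which may be technical variation.

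CaM kinases turn a rise in calcium into protein phosphorylation. Calcium-loaded calmodulin opens the kinase, and in CaMKII, a ring of many subunits, neighbouring subunits then phosphorylate each other, which keeps the enzyme active after calcium has fallen. In excitatory synapses of the hippocampus CaMKII is one of the most abundant proteins and is required for long-term potentiation. CaMKI and CaMKIV work differently: they need phosphorylation by a CaM kinase kinase (Camkk1 or Camkk2 product), and CaMKIV acts mainly in the nucleus, on the transcription factor CREB. The small proteins from Camk2n1 and Camk2n2 bind active CaMKII and block it.

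In the KO-labelled animals, Camk2n1 and Camk4 stood highest above WT, by 32.5% and 30.4%. Camk2a and Camk2g each stood 12.5% above WT, and Camkk2 by a similar margin. In each of these 5 genes both KO-labelled animals lay above both WT animals, as they did in 18.4% of all genes tested. None of the 10 genes passed the threshold, where 0.054% of all genes did (limma, adjusted p from 0.128 to 0.963, threshold 0.05). Camk2b, Camk2d, Camk2n2, Camk1 and Camkk1 overlapped between the groups. In bulk tissue fewer cells of a type and less RNA per cell cannot be told apart. The levels are FPKM, fragments scaled per transcript length and library total, and can be compared between genes. The differences are on the scale of log2(FPKM + 1), KO minus WT.

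The KO label was checked at the RNA level of the whole gene, and the check did not show a loss. Ptk2b (ENSMUSG00000059456, chromosome 14, 66153257 to 66281052) encodes Pyk2. Its level was 217 ± 21.0 FPKM in WT and 273 ± 6.33 FPKM in KO-labelled animals (SD, n = 2 each). The mean was thus higher and not lower, and both KO-labelled animals lay above both WT animals. The difference of 0.34 on the log2 scale (SE 0.07) did not pass in limma (adjusted p = 0.158; exact permutation p = 0.333). The WT animals differed as well, with WT1 14.7% above WT2. The gene-level value does not say whether an exon or the protein is missing, so every direction is given for the animals as labelled. The markers of hippocampal glutamatergic neurons were above 0 in every animal, with 8 of 8 tested, whereas 5 markers of striatal neurons summed to only 10.2 to 11.6 FPKM per animal. The 3 markers of thalamic and other regions summed to 28.5 and 21.0 FPKM in WT and 19.8 and 20.2 FPKM in KO-labelled animals. Summed choroid plexus markers (7 of 7 tested) were 3519 and 6525 FPKM in WT against 193 and 977 FPKM in KO-labelled animals. Blood markers (5 of 5 tested) were 287 and 317 against 149 and 158 FPKM. All genes of both sets had a lower mean in KO-labelled animals. In limma, 2 of the 5 blood markers passed the threshold over all genes, and 0 of the choroid plexus markers did. The choroid plexus markers made up 0.696% and 1.30% of all FPKM in WT and 0.0389% and 0.196% in KO-labelled animals. The part of these tissue differences in the results was not tested. Depth is unknown, since the tables hold no counts.

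The inhibitor genes are shown by their coding sequence, because they are a closely related pair with unequal differences from WT. The sequences are from GENCODE M21 (mm10), 5′ to 3′ from the start codon to the stop codon. Capitals mark bases that differ between the pair in a global alignment or stand opposite a gap.
Camk2n1: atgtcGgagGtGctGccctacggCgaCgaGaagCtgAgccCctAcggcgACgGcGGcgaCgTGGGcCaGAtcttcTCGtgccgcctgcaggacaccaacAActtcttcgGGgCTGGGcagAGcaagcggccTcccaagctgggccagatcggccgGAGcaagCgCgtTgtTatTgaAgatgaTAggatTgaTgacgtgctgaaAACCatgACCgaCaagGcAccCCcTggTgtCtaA
Camk2n2: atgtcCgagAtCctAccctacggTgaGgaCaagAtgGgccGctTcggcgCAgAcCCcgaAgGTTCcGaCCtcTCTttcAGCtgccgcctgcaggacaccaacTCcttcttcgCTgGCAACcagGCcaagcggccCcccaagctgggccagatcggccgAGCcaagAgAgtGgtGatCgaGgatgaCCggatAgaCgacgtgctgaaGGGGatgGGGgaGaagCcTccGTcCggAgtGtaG

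The coding parts have 237 and 240 bases, span chromosome 4, 138455186 to 138456788 (plus strand), and chromosome 16, 20620173 to 20621194 (minus strand), and each crosses 1 intron. Of 237 aligned positions 169 were identical (71.3%), and the longest identical run in the coding sequence was 23 bases. The Camk2n1 transcript is 4444 bases long and 4207 of them are untranslated; that of Camk2n2 is 1291 bases long with 1051 untranslated. Over the annotated transcripts of all 10 genes, no pair shared more than 34 identical bases in a row, the longest being those of Camk2a with Camk2b and with Camk2d. Read length is not given in the sources used here.

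Camk2n1 (ENSMUSG00000046447, chromosome 4, 138454314 to 138460123, protein-coding) was the member with the largest difference. The 4 WT libraries gave 121, 115, 125 and 119 FPKM, and the 4 KO-labelled libraries gave 177, 169, 150.1 and 139.8 FPKM. The groups did not overlap, and the KO1 animal stood well above KO2. Group levels were 119.9 ± 2.83 FPKM in WT and 159 ± 19.8 FPKM in KO-labelled animals (SD, n = 2 each). The difference of 0.40 on the log2 scale (SE 0.09, 95% interval 0.17 to 0.62) did not pass in limma (adjusted p = 0.167), and an exact two-sided permutation test over animals gave p = 0.333, the smallest that 2 against 2 allow. Of all tested genes, 0.468% had a higher difference. Without KO1 the difference was 0.27 (adjusted p = 0.247), and without KO2 it was 0.52 and passed (adjusted p = 0.0450), with the lone animal assumed to vary like the other group.

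Camk2n2 (ENSMUSG00000051146, chromosome 16, 20619215 to 20621287, protein-coding), the other inhibitor, overlapped between the groups. WT1 gave 41.4 and 42.6 FPKM and WT2 48.5 and 47.9 FPKM, and the KO-labelled libraries gave 46.2, 46.9, 47.3 and 47.4 FPKM. The KO-labelled libraries lay between the WT animals. The log2 difference was 0.06 (SE 0.07, 95% interval -0.12 to 0.24; limma adjusted p = 0.729).

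The balance of the inhibitors can be read within each animal, where scaling between libraries cancels. The ratio of Camk2n1 to Camk2n2 FPKM was 2.81 and 2.53 in the WT animals and 3.71 and 3.06 in KO-labelled animals, with no overlap in animals or libraries (exact permutation p = 0.333, adjusted p = 0.583 over 14 quantities within an animal). These 14 include the summed CaMKII and summed inhibitor FPKM, in which scaling does not cancel, and some restate the same contrast. Camk2n1 supplied 73.7% and 71.7% of summed inhibitor FPKM in WT, and 78.8% and 75.4% in KO-labelled animals. The summed inhibitors relative to the summed CaMKII genes overlapped, at 0.137 and 0.164 in WT and 0.178 and 0.157 in KO-labelled animals (exact permutation p = 0.667, adjusted p = 0.718). With 2 animals a group none of these 14 tests could reach 0.05.

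**Figure D1:**
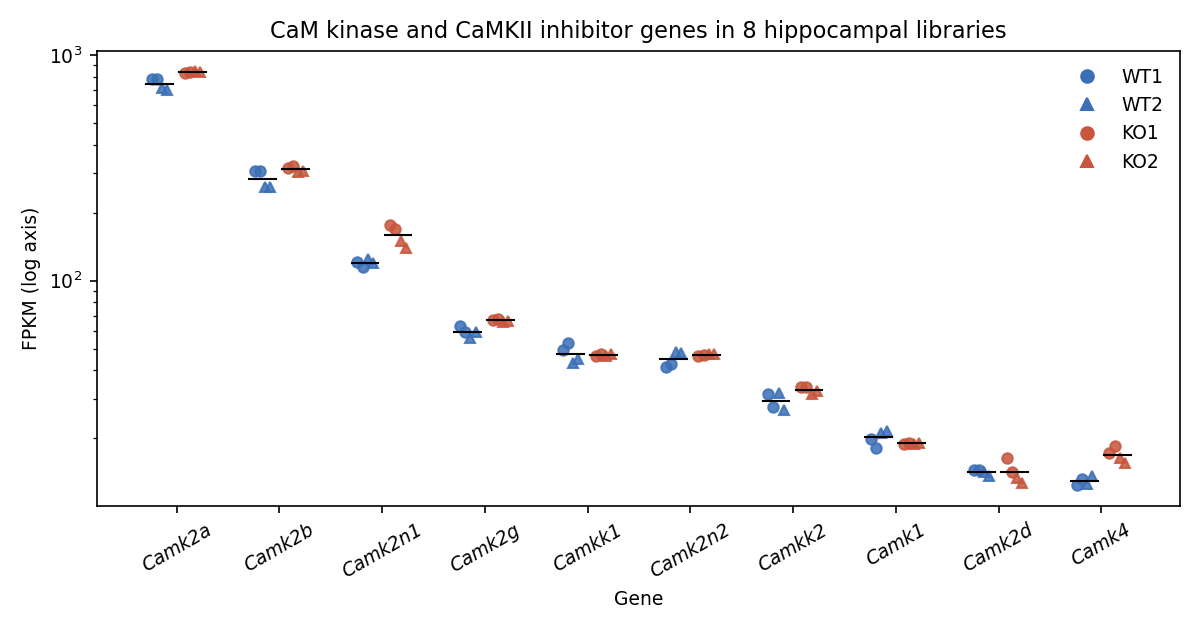
Level of each gene in FPKM (log axis) in all 8 libraries, with WT in blue and the KO-labelled animals in red, circles for animal 1, triangles for animal 2 and a black line for the group mean. Camk2n1 and Camk4 show red above blue in every library, while Camk2n2, Camkk1, Camk1 and Camk2d overlap.

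Among the CaMKII subunits, Camk2a (ENSMUSG00000024617, chromosome 18, 60925618 to 60988152, protein-coding), the alpha subunit of excitatory forebrain neurons, was the most abundant of the 10 genes. Only 0.288% of tested genes had a higher WT mean. WT1 gave 785 and 782 FPKM, WT2 gave 712 and 700.3 FPKM, and the KO-labelled libraries gave 829, 839.7, 844 and 838 FPKM. Every library labelled KO was above every WT library, and the WT animals differed from each other by 10.9%, nearly as much as the groups did. The difference was 0.17 (SE 0.06, 95% interval 0.02 to 0.33; limma adjusted p = 0.288). Without WT2 it was 0.10, and without WT1 it was 0.25.

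Camk2b (ENSMUSG00000057897, chromosome 11, 5969644 to 6066362, protein-coding) encodes the beta subunit, which also binds actin. WT1 gave 306 FPKM in both libraries and WT2 gave 261 and 259 FPKM, against 315, 321, 303 and 307 FPKM in KO-labelled libraries. WT1 lay within the range of the KO-labelled animals and WT2 lay below it. The difference was 0.14 (SE 0.08, 95% interval -0.07 to 0.36; limma adjusted p = 0.473), and it was 0.02 without WT2 and 0.26 without WT1.

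Camk2g (ENSMUSG00000021820, chromosome 14, 20734875 to 20794088, protein-coding), the gamma subunit, which can carry calmodulin to the nucleus, gave 63.0, 58.9, 55.4 and 59.3 FPKM in WT and 67.1, 67.5, 65.3 and 66.3 FPKM in KO-labelled libraries. All 4 KO-labelled libraries lay above all 4 WT libraries, by a small margin. The difference was 0.17 (SE 0.04, 95% interval 0.05 to 0.28; limma adjusted p = 0.212).

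Camk2d (ENSMUSG00000053819, chromosome 3, 126596302 to 126846326, protein-coding), the delta subunit, prominent in heart, was the rarest CaMKII gene. It gave 14.5, 14.6, 14.1 and 13.6 FPKM in WT and 16.4, 14.2, 13.3 and 12.7 FPKM in KO-labelled libraries. The KO-labelled animals lay on both sides of WT, and their technical replicates differed by up to 15.0%. The difference was -0.01 (SE 0.09, 95% interval -0.23 to 0.21; limma adjusted p = 0.963), and its sign turned under median-of-ratios scaling (0.02) and quantile normalization (0.02).

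The subunit mix was nearly the same in the 4 animals. Camk2a made up 67.2% and 68.1% of summed CaMKII FPKM in WT and 67.5% and 68.7% in KO-labelled animals. Camk2b made up 26.3% and 25.04% against 25.8% and 24.9%, and Camk2g 5.23% and 5.53% against 5.45% and 5.38%. These shares overlapped between the groups (exact permutation p = 0.667, 0.667 and 1.00). The Camk2d share was 1.25% and 1.34% in WT and 1.24% and 1.06% in KO-labelled animals, apart as animals but overlapping as libraries (exact permutation p = 0.333, adjusted p = 0.583). The ratio of Camk2a to Camk2b FPKM was 2.56 and 2.72 in WT and 2.62 and 2.76 in KO-labelled animals. Subunit protein was not measured. The sum of the 4 genes was 1165 and 1037 FPKM in WT and 1235 and 1225 FPKM in KO-labelled animals. Splice forms of the 4 genes were not resolved, since the values are per gene.

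**Figure D2:**
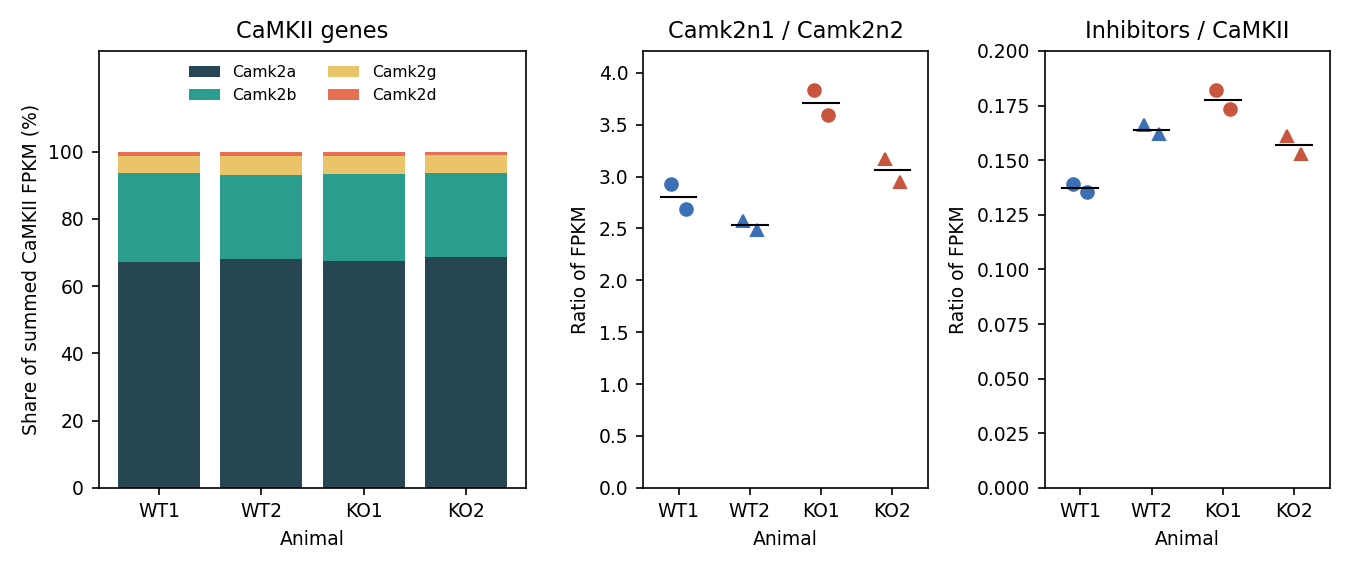
Left, stacked bars of the share (%) of each CaMKII gene in summed CaMKII FPKM for the 4 animals; middle and right, the ratio of Camk2n1 to Camk2n2 FPKM and of both inhibitors to the 4 CaMKII genes in each library (points, WT blue and KO red) with the animal's value as a line. The subunit shares look alike, Camk2n1 to Camk2n2 is 3.71 and 3.06 in KO-labelled animals against 2.81 and 2.53 in WT, and the inhibitor to kinase ratio overlaps.

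In the cascade of CaM kinase kinases, Camk4 (ENSMUSG00000038128, chromosome 18, 32934931 to 33191228, protein-coding) showed the smallest p of the 10 genes. Its libraries gave 12.4, 13.2, 12.6 and 13.6 FPKM in WT and 17.3, 18.4, 16.3 and 15.5 FPKM in KO-labelled animals. The groups did not overlap. The WT animals lay close together, at 12.8 and 13.1 FPKM, closer than their own technical replicates, which differed by 6.09% and 7.31%. Group levels were 12.96 ± 0.199 FPKM in WT and 16.9 ± 1.38 FPKM in KO-labelled animals (SD, n = 2 each). The difference of 0.36 (SE 0.07, 95% interval 0.18 to 0.53) did not pass in limma (adjusted p = 0.128). Of all tested genes, 0.594% had a higher difference and 2.45% a smaller p. An antisense gene, 2310026I22Rik, overlaps exons of Camk4, but stood at only 0.0753 FPKM over the 4 animals.

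Camk1 (ENSMUSG00000030272, chromosome 6, 113334124 to 113343984, protein-coding), a cytoplasmic kinase linked to growth of axons and dendrites, gave 19.9, 18.2, 21.2 and 21.6 FPKM in WT and 18.9, 19.1, 18.9 and 19.2 FPKM in KO-labelled libraries. The KO-labelled animals lay next to WT1 and below WT2, and the difference was -0.08 (SE 0.07, 95% interval -0.25 to 0.09; limma adjusted p = 0.596). Without WT2 it was -0.0014, and without WT1 it was -0.16. Its exons overlap those of the DNA repair gene Ogg1 on the opposite strand, at 3.61 FPKM, and without strand information their reads cannot be told apart.

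The upstream kinases of Camk1 and Camk4 differed in how the groups were placed. Camkk2 (ENSMUSG00000029471, chromosome 5, 122731170 to 122779409, protein-coding), which also activates the energy sensor AMPK, gave 31.5, 27.4, 31.8 and 26.6 FPKM in WT and 33.8, 33.8, 31.3 and 32.4 FPKM in KO-labelled libraries. As animals the groups did not overlap, as libraries they did, because the WT technical replicates differed by up to 17.9%. The difference was 0.16 (SE 0.05, 95% interval 0.04 to 0.28; limma adjusted p = 0.236), but 0.04 from the first technical replicates alone and 0.28 from the second. Camkk1 (ENSMUSG00000020785, chromosome 11, 73019008 to 73042073, protein-coding) gave 49.3, 52.7, 42.9 and 44.8 FPKM in WT and 46.4, 47.1, 46.1 and 47.2 FPKM in KO-labelled libraries, which lay between the WT animals. Its difference was -0.02 (SE 0.08, 95% interval -0.21 to 0.18; limma adjusted p = 0.934), and its sign turned under median-of-ratios scaling (0.01).

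The order of levels in WT ran from Camk2a at 745 ± 54.7 FPKM through Camk2b at 283 ± 32.9, Camk2n1 at 119.9 ± 2.83, Camk2g at 59.2 ± 2.52, Camkk1 at 47.5 ± 5.06, Camk2n2 at 45.1 ± 4.35, Camkk2 at 29.3 ± 0.187, Camk1 at 20.2 ± 1.67 and Camk2d at 14.2 ± 0.467 to Camk4 at 12.96 ± 0.199 FPKM (SD, n = 2 animals). Camkk1 and Camk2n2 overlapped in both groups and cannot be ordered, and the animals of all other neighbouring genes lay apart. In the KO-labelled animals the order was the same except at that pair and at the lower end, where Camk4 stood above Camk2d, with 16.9 ± 1.38 against 14.1 ± 1.63 FPKM.

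**Figure D3:**
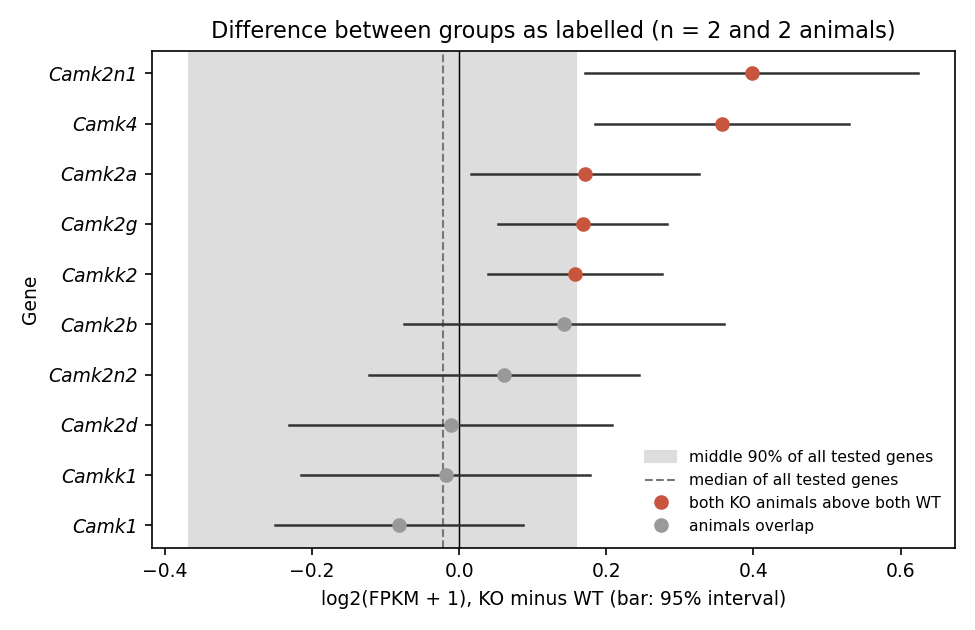
Difference of each gene on the log2(FPKM + 1) scale, KO minus WT, with its 95% interval from limma (n = 2 animals each), red where both KO-labelled animals lay above both WT animals and grey where animals overlapped. The shaded band holds the middle 90% of all tested genes, from -0.37 to 0.16, and Camk2n1 (0.40), Camk4 (0.36), Camk2a (0.17) and Camk2g (0.17) lie beyond it, the last pair only just.

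Against all tested genes the members were placed towards the higher side. Limma called 0 of the 10 at an adjusted p under 0.05, and 0.054% of all 16667 genes, all of those lower in KO-labelled animals. At an unadjusted p under 0.05 there were 5 members, all higher, where 4.11% of all genes were called higher. Both KO-labelled animals lay above both WT animals in 5 of 10 members, against 18.4% of all genes, and below them in 0 of 10, against 30.7% of all genes. All 4 KO-labelled libraries lay above all 4 WT libraries in Camk2a, Camk2g, Camk2n1 and Camk4, as in 7.11% of all genes, and below them in 0 of 10, as in 13.0% of all genes. At an unadjusted p under 0.05, 0 members were lower, where 11.4% of all genes were. The difference was above 0 in 7 of 10 members and 42.0% of all genes, and at least 0.3 in 2 of 10 (Camk2n1 and Camk4) and 0.912% of all genes. The median difference was 0.15 over the members and -0.02 over all genes. The members were chosen with earlier results of these data known, so these counts describe them and test nothing.

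All 8 glutamatergic neuron markers had a higher mean in KO-labelled animals (median difference 0.14, range 0.03 to 0.35, 0 passed), with summed levels of 626 and 599.6 FPKM in WT and 716 and 669 FPKM in KO-labelled animals. GABAergic markers summed to 484 and 489 FPKM in WT and 474 and 475 FPKM in KO-labelled animals. Their mean was higher in 2 of 6 genes (median difference -0.03, range -0.26 to 0.42, 0 passed). Astrocyte markers had a higher mean in 2 of 5 genes (median difference -0.02, 0 passed) and endothelial markers in 1 of 5 (median difference -0.05, 0 passed). Over all tested genes, 42.0% had a difference above 0. Oligodendrocyte markers had a higher mean in 6 of 6 genes (median difference 0.11, 0 passed), with sums of 2758 and 2575 FPKM in WT against 3057 and 2674 FPKM. Microglial markers had a higher mean in 4 of 5 genes (median difference 0.12, 0 passed), with sums of 96.1 and 89.1 FPKM in WT against 104.5 and 95.6 FPKM. The part of cell composition in these differences was not tested. Relative to Slc17a7, the vesicular glutamate transporter of these neurons, Camk2n1 stood at 0.312 and 0.322 in WT and 0.408 and 0.349 in KO-labelled animals. Camk4 relative to Slc17a7 stood at 0.0339 and 0.0345 in WT and 0.0422 and 0.0384 in KO-labelled animals. Both ratios were higher in all KO-labelled libraries than in any WT library, with log2 differences of 0.25 and 0.23 (exact permutation p = 0.333 each; adjusted p = 0.583). This reference gene was chosen after the values were seen. The glutamatergic markers themselves differed by 0.03 to 0.35, so the size of such a ratio difference depends on the marker taken. The other markers were not tested as a reference.

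The rest of the pathway was read from 5 lists, each described by its most abundant genes. In these lists 0 genes passed in limma over all genes, in either direction, and at an unadjusted p under 0.05 each list held 1 to 4 higher genes and 0 or 1 lower, where 4.11% of all genes were higher and 11.4% lower. A difference above 0 was found in 42.0% of all genes. Calmodulin and its neuronal binding proteins were higher on average in 6 of 7 genes (median difference 0.11, against -0.02 over all genes). The WT levels of the calmodulin genes Calm2 and Calm3 were 1249 ± 43.8 and 718 ± 25.8 FPKM, against 1376 ± 32.0 and 797 ± 24.8 FPKM in KO-labelled animals. Nrgn, which encodes neurogranin, a store of calcium-free calmodulin in dendrites, stood at 1033 ± 63.8 and 1111 ± 31.8 FPKM.

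Phosphatases that act on CaM kinases or oppose them, and their regulators, were higher on average in 10 of 11 genes, with a median difference of 0.14. The calcineurin genes Ppp3ca (catalytic) and Ppp3r1 (regulatory) stood at 453 ± 56.0 and 314 ± 21.4 FPKM in WT and 505 ± 53.4 and 354 ± 40.1 FPKM in KO-labelled animals, with overlapping animals. Ppp1r9b, the spinophilin gene that anchors protein phosphatase 1 in spines, stood at 228 ± 11.4 and 252 ± 5.33 FPKM, and Ppp1ca, a catalytic subunit of that phosphatase, at 94.7 ± 0.915 and 98.7 ± 2.16 FPKM. Of this list, 4 of 11 genes were higher at an unadjusted p under 0.05, against 4.11% of all genes, and 0 lower, against 11.4%.

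Synaptic substrates and partners of CaMKII were higher on average in 14 of 16 genes, with a median difference of 0.09. Dlg4, the gene of the scaffold PSD-95, had a WT level of 205 ± 12.4 FPKM and 221 ± 5.03 FPKM in KO-labelled animals. Syn1, which encodes the vesicle protein synapsin, stood at 182 ± 0.213 and 195 ± 8.89 FPKM. The receptor subunit genes Gria1 (AMPA type) and Grin1 (NMDA type) stood at 175 ± 11.8 and 128 ± 7.45 FPKM in WT and 178 ± 1.70 and 132 ± 7.01 FPKM in KO-labelled animals.

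Other calmodulin-dependent or related kinases were divided, with 8 of 15 tested genes higher and 7 lower on average (median difference 0.05); Dapk2 was below the minimum. Camkv, a kinase-like protein without known activity that is abundant in neurons, had a WT level of 212 ± 0.387 FPKM and 208 ± 4.71 FPKM in KO-labelled animals. Dclk1, a doublecortin-like kinase that binds microtubules, stood at 109 ± 1.58 and 129 ± 10.3 FPKM, Pnck, a CaMKI relative, at 39.1 ± 2.28 and 34.5 ± 8.73 FPKM, and Camk1d, another CaMKI gene, at 29.96 ± 1.60 and 31.7 ± 1.02 FPKM. Genes downstream of CaMKK and CaMKIV were higher on average in 5 of 12 and lower in 7, with a median difference of -0.01. The transcription factor gene Mef2d had a WT level of 62.6 ± 1.65 FPKM and 64.9 ± 1.18 FPKM in KO-labelled animals, the kinase gene Akt1 at 52.5 ± 0.827 and 51.1 ± 0.322 FPKM, the histone deacetylase gene Hdac5 at 43.8 ± 1.22 and 43.1 ± 0.788 FPKM and Mef2a at 33.2 ± 1.13 and 35.8 ± 1.44 FPKM. Mef2c had the highest difference of all 5 lists, 0.42 (SE 0.16; limma adjusted p = 0.309), and was named after its value was seen.

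**Figure D4:**
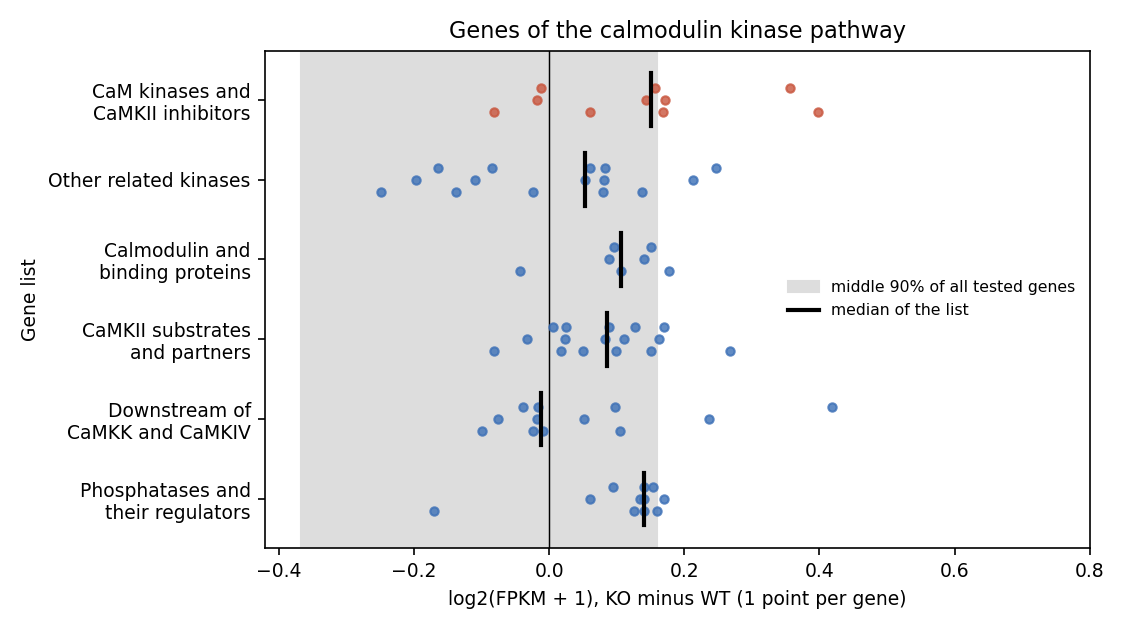
Difference of every tested gene on the log2(FPKM + 1) scale, KO minus WT, with 1 point per gene, for the CaM kinases and CaMKII inhibitors (red) and 5 pathway lists (blue); black bars are list medians and the shaded band holds the middle 90% of all tested genes. The members' median of 0.15 and the phosphatase median of 0.14 lie towards the band's upper edge at 0.16, while genes downstream of CaMKK and CaMKIV centre on -0.01.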

How the data were processed

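Gene tables of 8 hippocampal libraries were used. Each deposited table holds FPKM per gene with confidence limits and a status, per the file headers. Builds and tools in the submitters' processing notes are mm10, Bowtie (version 1) and HISAT without a role, and the program that computed FPKM is not given in the sources used here. The 53 rows that repeat a gene were summed, and 12 values with a status other than OK, none in a member, were set missing. Coordinates are those of the tables, 1-based, and equal GENCODE M21 for all members. Technical replicates were averaged per animal. Genes reaching 0.5 FPKM in 2 or more animals entered the test as log2(FPKM + 1) in limma 3.58.1 (R 4.3.3) with a trended variance and Benjamini-Hochberg adjustment, after a test on simulated data. The changes planted in the simulation were larger than any difference of the members, so it does not cover differences of their size. The pseudocount understates changes of low genes. Quantities within an animal were compared by exact permutation (scipy 1.17.1). Named genes are Ptk2b, all members and the 4 most abundant genes of each list, plus any past the threshold; 1 gene that this rule names is not reported here. The members and lists were chosen with earlier results of these data known. The labels number the animals 1 and 2 in both groups, with nothing that ties equal numbers together. Alternatives were other scalings, minimums, pseudocount and units, single technical replicates, a replicate block and leaving out each animal. With 8 libraries as units, the animal entered limma as a block with a common correlation of 0.303 between its technical replicates.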

Additional observations from a re-analysis of the deposited data

How the results depend on the processing

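Each group held only 2 animals, and no counts were available to give a depth. What limits the number of calls was not tested. The 10 genes had 0 calls as reported and under 13 of 15 alternatives, 1 call (Camk2n1) without KO2 and 3 (Camk2a, Camk2n1, Camk4) with 8 libraries as units, where Ptk2b passed as well (0.34; technical replicates there count as units). Camk2n1 and Camk4 kept their direction under these 15 alternatives (0.27 to 0.52 and 0.28 to 0.44). As ratios to Slc17a7, chosen after the values were seen, they differed by 0.25 and 0.23. In both genes all KO-labelled libraries lay above all WT libraries. Leaving out animals or libraries, or changing the minimum or the pseudocount, therefore could not turn these signs. The median of the members was 0.0946 from the first technical replicates alone and 0.11 to 0.19 with 1 animal left out. Calls over all genes, 9 as reported, were 0 with no filter (3741 at an unadjusted p under 0.05), 14 with a pseudocount of 0.1, 20 without the first library of KO1 (an alternative chosen after seeing the data), 1086 with 8 libraries as units, and 0 to 128 with 1 animal left out (0 without WT1 and without WT2, with 1631 and 1327 unadjusted, 1 without KO1 and 128 without KO2). With the replicate block they were 184, with 0 members called; the numbers share no source in the labels, and the deviations of equal numbers correlated at 0.108 over genes. The sign of Camk2d turned under median-of-ratios scaling (0.0174), quantile normalization (0.0227), the first technical replicates (0.0412), without WT1 (0.0196) and without KO2 (0.0985). That of Camkk1 turned under median-of-ratios scaling (0.0123), the first technical replicates (0.0066) and without WT1 (0.0885, against -0.125 without WT2), and that of Camk2n2 without WT1 (-0.0357, against 0.157 without WT2). With 1 animal left out, KO minus WT ranged from -0.11 to 1.01 percentage points for the Camk2a share, -0.954 to 0.287 for Camk2b and -0.122 to 0.180 for Camk2g, so their signs turned; the cause was not tested.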

Other observations

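Camk2n1 was higher in the first than in the second technical replicate of all 4 animals, by 4.55% to 7.11%, and in each animal the deposited confidence intervals of the pair did not overlap. Camkk1 went the other way, higher in the second technical replicate of all 4 animals, by 1.67% to 6.63%, with overlapping intervals. Among 40 pairs of technical replicates of the 10 genes the intervals lay apart in 6, these 4 and Camkk2 in both WT animals (13.8% and 17.9%). The median difference over the 40 pairs was 2.52%. In KO1 and KO2 the Camkk2 intervals overlapped. Camk2n1 differed more between the KO-labelled animals than between technical replicates, with KO1 19.3% above KO2. The WT animals, at 117.9 and 121.9 FPKM, lay closer together than their own technical replicates, which differed by 5.71% and 4.55%.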
